A study of Arabidopsis thaliana with 6 samples.

Results

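Spliced transcripts of transposable elements (TEs) near the Arabidopsis centromeres are described here through 290 of the 829 TE transcript models that the authors deposited for 6 libraries. A model is a representative transcript built from a cluster of long cDNA reads. A model was taken when it had 2 or more exons and its midpoint lay at 12.5 to 17.0 Mb of chromosome 1, 1.5 to 6.0 Mb of chromosome 2, 11.5 to 16.0 Mb of chromosome 3, 2.0 to 5.5 Mb of chromosome 4 or 10 to 14 Mb of chromosome 5. The members were thus selected on the exon number and position of each deposited model, so neither is a finding. Of the 290 models, 111 had exactly 2 exons, the fewest the choice allowed. The spliced model nearest to an edge on the inside lay 9.69 kb from it, at AT2TE06955, and the nearest outside lay 28.8 kb away, at AT2TE24525. Within 100 kb of an edge there were 21 members inside and 14 spliced models outside. Genes annotated as protein-coding covered 13.4% of the 5 blocks together, against 62.8% of the rest of the 5 chromosomes, with 10.5% to 16.8% in single blocks.

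Immature flower buds of stages 1 to 12 from Arabidopsis thaliana, ecotype Columbia, gave poly(A) RNA that was sequenced as PCR-amplified cDNA on a Nanopore MinION. The groups were ddm1 rdr6 pol V, with a replicate B and a replicate A, and ddm1 pol V, ddm1 rdr6, ddm1 and wt with 1 library each, so the 5 mutant libraries all carry ddm1. Replicate B was sequenced alone in round 2 after 13 PCR cycles and, per the labels, to a higher depth, while the other 5 libraries shared round 1 and had 14 cycles. The labels name no alleles and do not say if the replicates stem from different plants, and the wt RNA was extracted with TriZOL while the mutants had TriZOL LS. Each comparison below is therefore between libraries, and genotype, depth and sequencing round cannot be told apart where replicate B is involved. In whole flower buds, fewer expressing cells and less RNA per cell cannot be told apart either.

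DDM1 is a chromatin remodeller that keeps TEs methylated and silent, and TEs near centromeres are transcribed in plants that lack it. RDR6 copies TE transcripts into double-stranded RNA, from which small RNAs are cut. Pol V is a plant RNA polymerase whose transcripts guide DNA methylation to TEs. Introns are removed by the spliceosome, which in nearly all plant introns joins a donor site that begins with GT to an acceptor site that ends with AG.

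The junctions on which the results turn are shown first, read from the RefSeq TAIR10.1 sequence, 5′ to 3′ on the strand of the model. In the first set the last 15 exon bases or the first 15 exon bases are in lower case and the 15 intron bases next to them are in capitals. The 4175 nt intron of AT4TE15820 (donor chr4:3506533-3506562, acceptor chr4:3502358-3502387, minus strand) was the intron with the most reads, and it stands as the example of a usual junction in a long intron.
AT4TE15820 donor, 4175 nt intron: ttcagccgaattaagGTAAGTTTCTAGTTA
AT4TE15820 acceptor, 4175 nt intron: CTACTTGTCTTACAGgtaaccttagtggga
The 4 introns over 5000 nt follow, from AT4TE15820 on the plus strand (chr4:3507949-3507978 and chr4:3688369-3688398), AT4TE19910 (plus strand, chr4:4761505-4761534 and chr4:4777203-4777232), AT4TE09810 (plus strand, chr4:2071641-2071670 and chr4:2084929-2084958) and AT2TE20960 (minus strand, chr2:5110650-5110679 and chr2:5105464-5105493).
AT4TE15820 plus strand donor, 180420 nt intron: cttggctggattaagCTTAAGGCAAATTTG
AT4TE15820 plus strand acceptor, 180420 nt intron: CTTTGTGGGGTTGAGtttgacgttgtataa
AT4TE19910 donor, 15698 nt intron: cttttcatgcatttaGTTTAGTTTCATGTC
AT4TE19910 acceptor, 15698 nt intron: GTAGAATGCATTTAGtttagtttcatgtct
AT4TE09810 donor, 13288 nt intron: ttaataaaaaaatatGTATTACTACAAAAT
AT4TE09810 acceptor, 13288 nt intron: TTTTGAATCGGAATGaaatgtaaaaaaaaa
AT2TE20960 donor, 5186 nt intron: cacacgactctcaagGTAACTTCTCTCCAT
AT2TE20960 acceptor, 5186 nt intron: TCTAACCTTTGGCAGgcgatagctgccacg

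In the second set the bases between 2 alternative acceptor sites are in capitals. They are shown because sites a few bases apart were used at AT1TE42225 (chr1:12950930-12950958, plus strand), AT1TE45375 (chr1:13841009-13841037, minus strand) and AT3TE51150 (chr3:12349552-12349580, plus strand).
AT1TE42225, sites 5 nt apart: gttgttgtgaagGGCAGtcgcgactcatg
AT1TE45375, sites 5 nt apart: tcctcttattagTCTAGtccggactaatc
AT3TE51150, sites 3 nt apart: tttcgttttgtagCAGgaaatttacgttg
In the third set a skipped exon is in capitals between 10 intron bases on each side. These exons are shown because they came from 3 loci on 3 chromosomes and are alike in sequence: AT2TE19610 (chr2:4727732-4727840, plus strand), AT3TE60425 (chr3:14791133-14791241, minus strand) and AT4TE15555 (chr4:3415922-3416035, plus strand).
AT2TE19610, skipped exon of 89 nt: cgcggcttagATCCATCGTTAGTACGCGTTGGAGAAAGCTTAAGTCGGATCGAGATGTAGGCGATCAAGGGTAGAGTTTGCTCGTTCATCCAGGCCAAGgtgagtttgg
AT3TE60425, skipped exon of 89 nt: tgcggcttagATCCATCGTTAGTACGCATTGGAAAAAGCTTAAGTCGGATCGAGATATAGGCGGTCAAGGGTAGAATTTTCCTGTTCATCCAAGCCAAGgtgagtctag
AT4TE15555, skipped exon of 94 nt: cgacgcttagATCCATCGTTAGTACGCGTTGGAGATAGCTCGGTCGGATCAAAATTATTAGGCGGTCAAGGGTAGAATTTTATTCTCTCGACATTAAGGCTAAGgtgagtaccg
Last, the 90 nt intron of AT1TE44450 that some models retained (chr1:13575681-13575790, minus strand) is in capitals between 10 exon bases on each side.
AT1TE44450, retained 90 nt intron: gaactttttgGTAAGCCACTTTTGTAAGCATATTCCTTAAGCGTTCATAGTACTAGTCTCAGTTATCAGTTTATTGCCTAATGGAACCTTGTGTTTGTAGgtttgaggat

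The members lay at 116 loci, a locus being a set of models whose exons overlapped on the same strand, named here by its first TE identifier. The number of members was 165 in ddm1 rdr6 pol V replicate B, 28 in replicate A, 48 in ddm1 pol V, 37 in ddm1 rdr6, 12 in ddm1 and 0 in wt, where a count of 0 allows up to 3.69 models (exact 95% Poisson limit). Replicate B held more members than the other 5 libraries together, and wt held none among its 2 models in the blocks. The share of the models in the blocks that were spliced was 53.7% in replicate B, 45.2% in replicate A, 44.9% in ddm1 pol V, 48.7% in ddm1 rdr6 and 31.6% in ddm1. The exact 95% binomial interval was 48.0% to 59.4% for replicate B and 17.5% to 48.7% for ddm1, and these overlapped. Intervals here and below cover counting error only, since PCR reads carry no molecular identifiers and models of 1 library share their source.

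**Figure D1:**
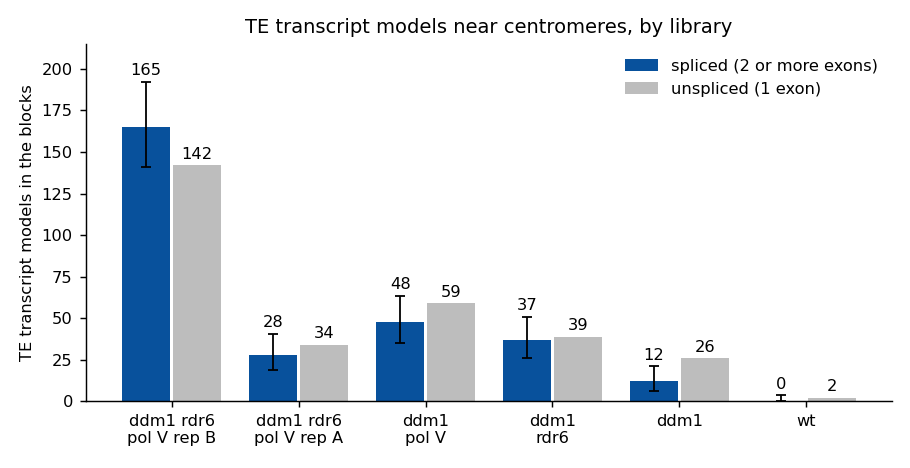
Number of TE transcript models in the 5 blocks (y axis) in each library (x axis), spliced models in blue and unspliced models in grey, with exact 95% Poisson intervals on the spliced counts. Replicate B of ddm1 rdr6 pol V held 165 spliced and 142 unspliced models, and wt held 0 spliced and 2 unspliced ones.

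Each model name ends in a number of at least 10, read here as the reads of its cluster, and the members held 10858 reads in all. Spliced models held 7446 of the 12357 reads in the blocks in replicate B (60.3%), 788 of 1725 in replicate A (45.7%), 1539 of 3201 in ddm1 pol V (48.1%), 850 of 2327 in ddm1 rdr6 (36.5%), 235 of 979 in ddm1 (24.0%) and 0 of 67 in wt. The share by reads was highest in replicate B and lowest, among mutant libraries, in ddm1. The share of block models that were spliced also differed between chromosomes, with 72.0% on chromosome 1, 52.1% on chromosome 2, 45.4% on chromosome 3, 35.0% on chromosome 4 and 40.0% on chromosome 5. A locus counts again for each of its models, and the 77 members on chromosome 1 came from 23 loci. Of these, AT1TE44450 held 14 members and AT1TE45375 held 10. The library totals are not given in the files, and a locus with no model may still have had fewer than 10 reads.

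Most member loci overlapped entries that the annotation labels as pseudogenes. At AT2TE20220 the note of such an entry names similarity to an En/Spm-like transposon protein, so the label can cover TE sequence. The shares that follow were taken for the members only. Of the 116 loci, 81 (69.8%) overlapped an exon of an annotated pseudogene on the same strand, 5 an exon of a protein-coding gene, and 29 no gene on that strand. Spliced members had a median length of 928.5 nt after splicing, against 694 nt for spliced models outside the blocks and 584.5 nt for unspliced models inside them. The locus with most exons was AT4TE17660 (chr4:4077886-4080516), whose 1 model had 11 exons and 11 reads in replicate B and overlapped the pseudogene AT4G06748. AT2TE13145 (chr2:3019440-3022869) had 10 exons in a model of 14 reads in replicate B, and AT2TE20205 (chr2:4901024-4908965) had 10 exons in a model of 10 reads in ddm1 pol V. These longest chains thus rested on 1 model each.

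The members held 320 distinct introns, and their lengths centred on the usual size for this plant. The median was 101 nt (95% interval 96 to 112 nt), the quartiles were 82 and 364.5 nt, and the range ran over 65 to 180420 nt. Spliced models outside the blocks had 189 distinct introns with a median of 102 nt, and 131098 annotated introns of protein-coding genes had a median of 101 nt. The medians were alike, while the upper tail was longer among the members. Introns over 300 nt made up 27.5% of the member introns, 19.0% of those outside the blocks and 13.2% of annotated coding introns. Introns over 1000 nt numbered 20 of 320 (6.25%) among members, 4 of 189 (2.12%) outside the blocks and 0.806% among annotated coding introns. The median intron was 103 nt in replicate B, 146.5 nt in replicate A, 107.5 nt in ddm1 pol V, 114 nt in ddm1 rdr6 and 164 nt in ddm1, on 309, 46, 106, 65 and 23 introns in that order of libraries. The 95% intervals of these 5 medians all overlapped.

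**Figure D2:**
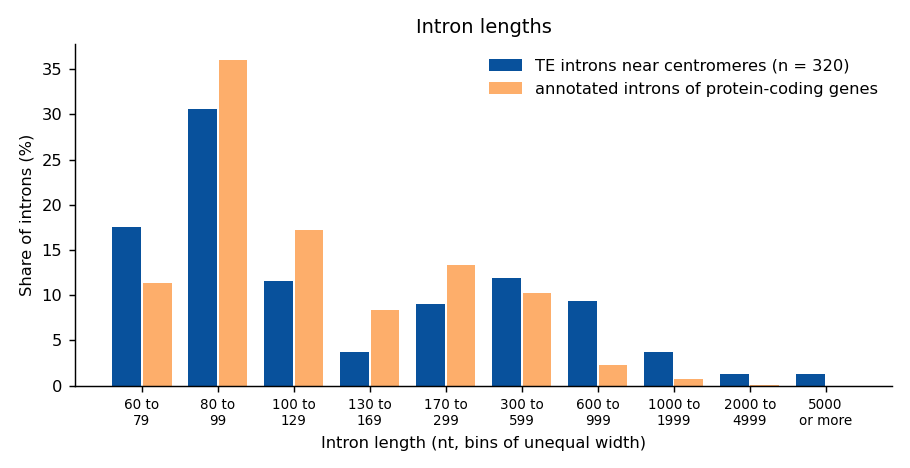
Share of introns in percent (y axis) by length in nt (x axis, bins of unequal width) for the 320 introns of spliced TE models near centromeres (blue) and the annotated introns of protein-coding genes (orange, of which those under 60 nt are not drawn). Both peak in the bin that starts at 80 nt, with 30.6% of TE introns and 36.0% of coding introns, and in the bin from 600 nt to below 1000 nt the shares are 9.38% and 2.26%.

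The splice sites of nearly all members were of the usual kind. Of the 320 introns, 314 (98.1%, 95% interval 96.0% to 99.3%) began with GT and ended with AG in the reference, against 98.9% outside the blocks and 98.7% of annotated coding introns. The full donor GTAAG opened 39.1% of member introns (33.7% to 44.6%), 28.6% of introns outside the blocks (22.2% to 35.6%) and 16.8% of annotated coding introns. The acceptor CAG closed 52.5% of member introns, 51.3% outside the blocks and 63.6% of annotated coding introns. Against annotated coding introns, the GTAAG share of the members was higher and the CAG share lower, and the intervals did not overlap. The median AT content was 67.7% in member introns and 56.0% in the flanking exon sequence, and 96.6% of introns were richer in AT than their flanks. The introns outside the blocks, with a median of 68.2% and a share of 96.8%, and annotated coding introns, with 67.2% and 96.0%, were much alike. Of the member introns 39 (12.2%) matched an annotated intron exactly, against 64 of 189 (33.9%) outside the blocks. Introns of 1 locus and of related TE copies are not independent, so these shares are descriptions. The settings of the read alignment behind the models are not known, and its part in the share of GT-AG ends was not tested.

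Of the 320 introns, 207 were found in 1 library and 113 (35.3%) in 2 or more, against 83 of 189 (43.9%) outside the blocks. Of 124 introns seen in round 1, 113 (91.1%, 84.7% to 95.5%) were also in replicate B, with the same first and last base, against 92.2% outside the blocks. Each library's introns were found in replicate B in 45 of 46 cases for replicate A, 96 of 106 for ddm1 pol V, 65 of 65 for ddm1 rdr6 and 23 of 23 for ddm1. The 11 round 1 introns that were not in replicate B were 9 of AT2TE20205 and the 461 nt intron of AT1TE45375, all in ddm1 pol V, and the 89 nt intron of AT3TE51150 in replicate A. In the other direction, 196 introns (61.2%) were seen in replicate B only, and they had a median of 14 reads there, against 40 for those also seen in round 1. Introns seen in replicate B only thus had fewer reads. Loci with members in 1, 2, 3, 4 and 5 libraries numbered 68, 21, 10, 7 and 10, and 41.4% of loci recurred in 2 or more libraries, against 48.1% of 77 loci with spliced models outside the blocks and 38.4% of 138 loci with unspliced models in the blocks.

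The 10 loci spliced in all 5 mutant libraries held 3055 of 7446 spliced reads in replicate B (41.0%), 434 of 788 in replicate A (55.1%), 944 of 1539 in ddm1 pol V (61.3%), 536 of 850 in ddm1 rdr6 (63.1%) and, in ddm1, 223 of 235 (94.9%). Since they were picked for a member in every mutant library, and ddm1 had 11 member loci against 115 in replicate B, these shares follow from the choice and are a description only. AT2TE19610 (chr2:4727560-4731777, pseudogene AT2G11780) had 842 spliced reads in replicate B, 137 in replicate A, 272 in ddm1 pol V, 49 in ddm1 rdr6 and 26 in ddm1. AT4TE15820 (chr4:3501702-3506699, minus strand, pseudogene AT4G06566) had 756, 55, 257, 100 and 39 in the same order. Replicate B was highest and ddm1 lowest at both, with ddm1 pol V above replicate A. AT1TE44450 (chr1:13573914-13576541, pseudogene AT1G36190) had 368 spliced reads in replicate B, 57 in replicate A, 84 in ddm1 pol V, 105 in ddm1 rdr6 and 24 in ddm1. AT1TE44630 (chr1:13625801-13628292, pseudogene AT1G36260) had 278, 58, 78, 71 and 19 in that order, and all 5 libraries joined the same 4 introns of 78, 81, 73 and 554 nt. At these loci the 3 round 1 libraries with a mutation beside ddm1 stood between replicate B and ddm1.

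AT1TE45375 (chr1:13839882-13841658, pseudogene AT1G36630) had 409 spliced reads in replicate B, 40 in replicate A, 40 in ddm1 pol V, 49 in ddm1 rdr6 and 12 in ddm1. AT2TE15660 (chr2:3595881-3597578, with no annotated gene on its strand) had 160, 22, 45, 45 and 18 in that order. AT1TE52925 (chr1:16070350-16074043, pseudogene AT1G42705) had 108, 15, 38, 27 and 12, all with the same 3 introns of 848, 100 and 181 nt. Replicate A and ddm1 were the lower libraries at AT2TE15660 and AT1TE52925. AT3TE58655 (chr3:14273596-14274890, pseudogene AT3G42090) had 61 spliced reads in replicate B, 10 in replicate A, 35 in ddm1 pol V, 16 in ddm1 rdr6 and 12 in ddm1, with the same introns of 406 and 364 nt in all. AT3TE51150 (chr3:12349040-12349861) is the protein-coding gene AT3G30720, known as QQS, an orphan gene with a role in starch content, and it had 59, 11, 21, 15 and 39 in that order. There ddm1 was second to replicate B, unlike the 8 loci given before it.

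AT4TE10210 (chr4:2157247-2158241, pseudogene AT4G04394) ran the other way, with 14 spliced reads in replicate B, 29 in replicate A, 74 in ddm1 pol V, 59 in ddm1 rdr6 and 22 in ddm1. Replicate B was lowest there, although it was highest at the other 9 loci. All 5 libraries joined the same 172 nt intron of AT4TE10210. In its model with most reads, of ddm1 pol V, both exons had other copies in the genome at 98% identity or more. There were up to 5 for 1 exon. The models of this locus were 694 to 822 nt long, and those of the other libraries were not searched. Reads of this locus may be shared with its copies, and this was not tested.

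**Figure D3:**
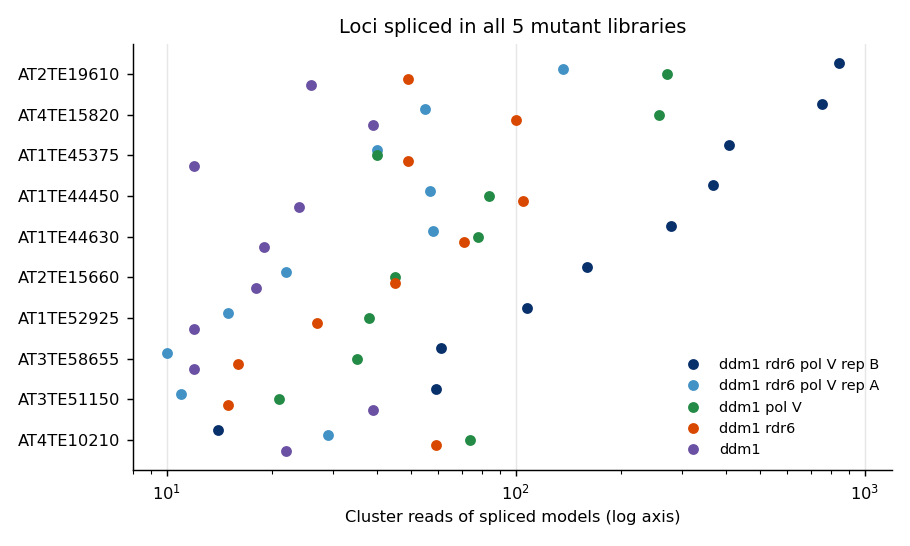
Cluster reads of spliced models (x axis, log scale) at the 10 loci found in all 5 mutant libraries (y axis), 1 point per library. Replicate B of ddm1 rdr6 pol V is rightmost at 9 loci, from 842 reads at AT2TE19610 to 59 at AT3TE51150, and leftmost at AT4TE10210 with 14.

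Alternative introns made up a larger share of the members' introns than of those outside the blocks, with intervals that did not overlap. Of 320 member introns 46 (14.4%, 10.7% to 18.7%) shared 1 end with another intron or spanned others, against 6 of 189 (3.17%, 1.17% to 6.78%) outside. The median reads per locus were 24.5 for members and 29 outside. In all, the 116 member loci held 10858 spliced reads and the 77 loci outside held 5656. The part of read depth in this difference was not tested. There were 11 pairs of alternative acceptors, 5 pairs of alternative donors and 14 pairs that skipped an exon, against 1, 2 and 0 pairs outside. The 16 shifts of a donor or acceptor spanned 3 to 945 nt with a median of 32 nt, and 7 of them were multiples of 3. Pairs of forms at the same locus share most of their sequence and are not independent.

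Among alternative acceptors, the sites of AT2TE15660 were used side by side in several libraries. Its 766 nt intron had 122 reads in replicate B, 22 in replicate A, 33 in ddm1 pol V, 32 in ddm1 rdr6 and 18 in ddm1, while the 792 nt form, with an acceptor 26 nt further on, had 38, 0, 12, 13 and 0. The longer form was seen in the 3 libraries with most reads of the locus. AT2TE07745 (chr2:1671014-1672368, pseudogene AT2G04770) joined 1 donor to 3 acceptors. Its 129 nt intron had 178 reads in replicate B, 20 in replicate A, 27 in ddm1 pol V and 28 in ddm1 rdr6, its 216 nt intron had 54 in replicate B and 14 in replicate A, and its 99 nt intron had 11 in replicate B. These 3 sites lay 30 and 87 nt apart, both multiples of 3.

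The closest acceptor pairs, whose bases are printed above, differed by library. At AT1TE45375 the nearer site had 208 reads in replicate B, 40 in replicate A and 27 in ddm1 pol V, and the site 5 nt further had 13 reads, all in ddm1 pol V. At AT3TE51150 the nearer site had 59 reads in replicate B, 21 in ddm1 pol V, 15 in ddm1 rdr6 and 39 in ddm1, while all 11 reads of replicate A were in a model that used the site 3 nt further. At AT1TE42225 (chr1:12950297-12953257, pseudogene AT1G35300) the nearer site had 19 reads in replicate B, and the site 5 nt further had 30 in replicate B and 10 in ddm1 pol V. Since a model takes 1 form for all reads of its cluster, minor forms a few bases apart may be hidden inside a model.

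Exon skipping was seen at 6 loci. The 89 nt exon of AT2TE19610 was skipped in 136 of 830 reads in replicate B (16.4%, 13.9% to 19.1%), 16 of 137 in replicate A (11.7%, 6.82% to 18.3%), 51 of 272 in ddm1 pol V (18.8%, 14.3% to 23.9%), 14 of 49 in ddm1 rdr6 (28.6%, 16.6% to 43.3%) and, in ddm1, 0 of 26 (up to 13.2%). The interval of ddm1 overlapped that of replicate A alone, the other 4 overlapped one another, and a skipped form at 16.4% of the 26 reads of ddm1 would be under the minimum of 10 reads. A second exon of AT2TE19610, of 142 nt, was skipped in a model of 10 reads in replicate B, where the 1124 and 1288 nt introns joined 684 and 136 reads to its first base and models with 806 reads ended in the intron after it. Other loci with a similar exon were named after their values were seen. AT3TE60425 (chr3:14789042-14791413) skipped its 89 nt exon in 26 of 94 reads in replicate B (27.7%), 40 of 95 in ddm1 pol V (42.1%) and 12 of 12 in ddm1 rdr6 (73.5% up). In ddm1 rdr6 an included form of fewer than 10 reads would not be listed. AT4TE15555 (chr4:3415750-3417170) skipped its 94 nt exon in 16 of 30 reads in replicate B (53.3%).

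The skipped exons of these 3 loci were alike. The exon of AT2TE19610 was identical to that of AT3TE60425 at 80 of 89 aligned positions (89.9%) and to that of AT4TE15555 at 74 of 96 (77.1%), and AT3TE60425 and AT4TE15555 were identical at 74 of 95 (77.9%). The exon of AT3TE53850, by contrast, was identical to that of AT2TE19610 at 47 of 102 positions (46.1%). The intron before the exon was 75 nt in AT2TE19610, 75 nt in AT3TE60425 and 79 nt in AT4TE15555, and the intron after it was 1124, 1221 and 968 nt. None of the 3 exons had a length that is a multiple of 3.

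At 2 other loci the form without the exon held most reads. The 98 nt exon of AT3TE53850 (chr3:13168259-13170662, pseudogene AT3G32195) was skipped in 638 of 672 reads in replicate B (94.9%, 93.0% to 96.5%) that joined both of its neighbours, and in all such reads of replicate A (83), ddm1 pol V (34) and ddm1 rdr6 (21). Its upstream 234 nt intron, which leads into the exon, had 87 reads in replicate B and 10 in replicate A, of which 53 and 10 were in models without the 169 nt intron after the exon. The 228 nt exon of AT4TE15820 was skipped in 744 of 756 reads in replicate B (98.4%) and in all 55 reads of replicate A, 257 of ddm1 pol V, 100 of ddm1 rdr6 and 39 of ddm1. Models that spliced both sides of the exon were seen in replicate B only, the library with most reads at both loci. The sixth locus, AT2TE08300, skipped a 63 nt exon in 15 of 27 reads of replicate B and was named after its values were seen.

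Of the 116 loci, 27 (23.3%, 15.9% to 32.0%) had 2 or more intron chains, an intron chain being the ordered set of introns that defines an isoform, against 9 of 77 (11.7%, 5.49% to 21.0%) outside the blocks. The loci with 1, 2, 3, 4 and 5 chains numbered 89, 18, 4, 3 and 2. Within a library, 25 loci had 2 or more chains in replicate B, 3 in replicate A, 4 in ddm1 pol V, 3 in ddm1 rdr6 and 0 in ddm1. Most isoforms beyond the first were thus seen in replicate B, the deepest library. The loci with 5 chains were AT2TE19610 and AT3TE53850, and AT1TE45375, AT2TE07745 and AT1TE42225 had 4.

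At AT3TE53850 the leading isoform, with introns of 96, 100 and 501 nt, had 576 reads in replicate B, 83 in replicate A, 34 in ddm1 pol V and 21 in ddm1 rdr6. An isoform with introns of 96, 100 and 234 nt had 53 reads in replicate B and 10 in replicate A, in models of 504 to 1974 nt. The other 3 isoforms were seen in replicate B only, with 45 reads for a donor shifted by 13 nt, 34 for the included 98 nt exon and 17 for a further intron of 192 nt in the last exon. At AT2TE19610 the leading isoform with introns of 75 and 1124 nt had 670 reads in replicate B, 121 in replicate A, 221 in ddm1 pol V, 35 in ddm1 rdr6 and 26 in ddm1. Its 3 isoforms of 4 to 7 exons, with 10 to 14 reads each, ran further downstream and were seen in replicate B only.

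**Figure D4:**
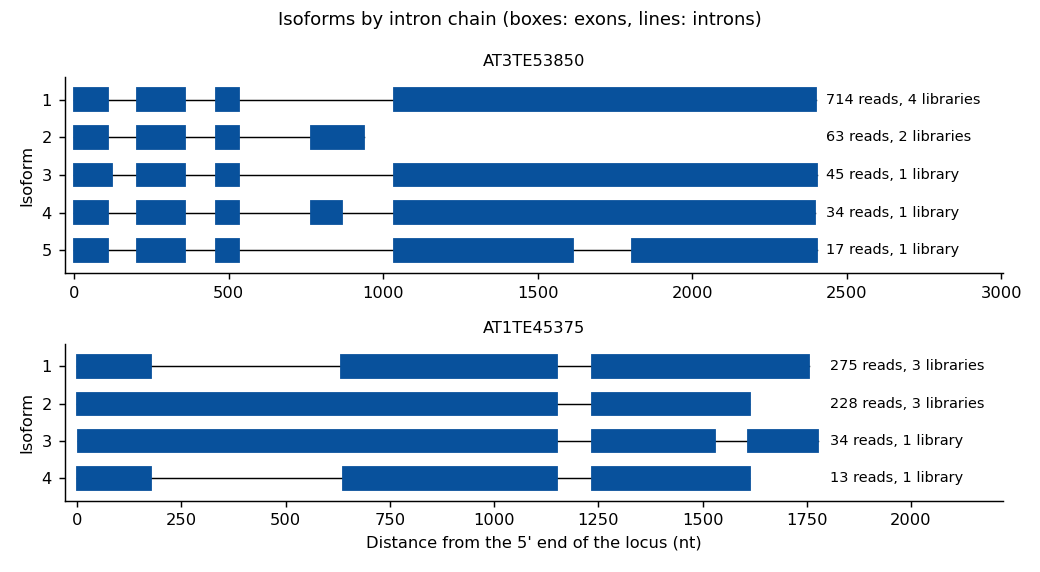
Isoforms of AT3TE53850 (top) and AT1TE45375 (bottom) by distance in nt from the 5′ end of the locus (x axis), with exons as boxes and introns as lines, to scale within each panel and drawn from the model with most reads of each chain. AT3TE53850 has 5 isoforms of 714 to 17 reads, and AT1TE45375 has 4 of 275 to 13 reads that differ in a first intron of 456 or 461 nt and in a last intron of 79 nt.

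Models of 1 library that shared a chain differed mainly at their 3′ ends. There were 20 such chains among 267 counted per library, and the 3′ ends of their models lay more than 20 nt apart in all 20, by a median range of 520 nt. The 5′ ends lay more than 20 nt apart in 2 of the 20. Outside the blocks there were 5 such chains, with 3′ ends more than 20 nt apart in 5 and 5′ ends in 1. Models with 1 chain in 1 library can differ at their ends only. The settings by which the clustering merged or kept apart reads with unlike 5′ or 3′ ends are not known. The difference between the 2 ends may stem from them, and this was not tested.

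Retained introns, which lay whole inside an exon of another model on the same strand, numbered 20 of 320 (6.25%, 3.86% to 9.49%) among the members and 9 of 189 (4.76%, 2.2% to 8.85%) outside the blocks. The intervals overlapped. The first intron of AT1TE45375, of 456 nt, was removed in 208 reads and retained in 211 reads of replicate B (50.4% retained, 45.5% to 55.2%). Replicate A removed it in all 40 reads, and ddm1 pol V removed it in 27 and removed the 461 nt form in its other 13. All 49 reads of ddm1 rdr6 and all 12 of ddm1 retained it, with intervals from 92.7% and 73.5% up. The intervals of replicate A and ddm1 pol V thus did not overlap with those of ddm1 rdr6 and ddm1. Replicate B lay between, apart from replicate A of the same genotype. A form of fewer than 10 reads in a library would not be listed, and these intervals take no account of such reads. In ddm1, with 12 listed reads, a removed form just under that minimum would take the retained share below 73.5%. The separation of the libraries therefore holds for listed reads only, and the other form need not have been absent.

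At AT3TE51150 (QQS) the 78 nt first intron was removed in all 59 reads of replicate B, 11 of replicate A, 21 of ddm1 pol V and 15 of ddm1 rdr6, and was retained in all 39 reads of ddm1. Among listed models the ddm1 library stood alone there, with 1 model and no replicate. The other form could be present in any of these libraries with fewer than 10 reads. At AT1TE44450 the 90 nt intron printed above was retained in 46 of 368 reads in replicate B (12.5%, 9.3% to 16.3%) and 16 of 105 in ddm1 rdr6 (15.2%, 8.97% to 23.6%). It was removed in all 57 listed reads of replicate A, 84 of ddm1 pol V and 24 of ddm1. By counting error alone the retained share there could be up to 6.27%, 4.3% and 14.2%. With clusters of fewer than 10 reads not listed, a retained form at 15.2% would hold fewer reads than that minimum in replicate A and in ddm1.

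**Figure D5:**
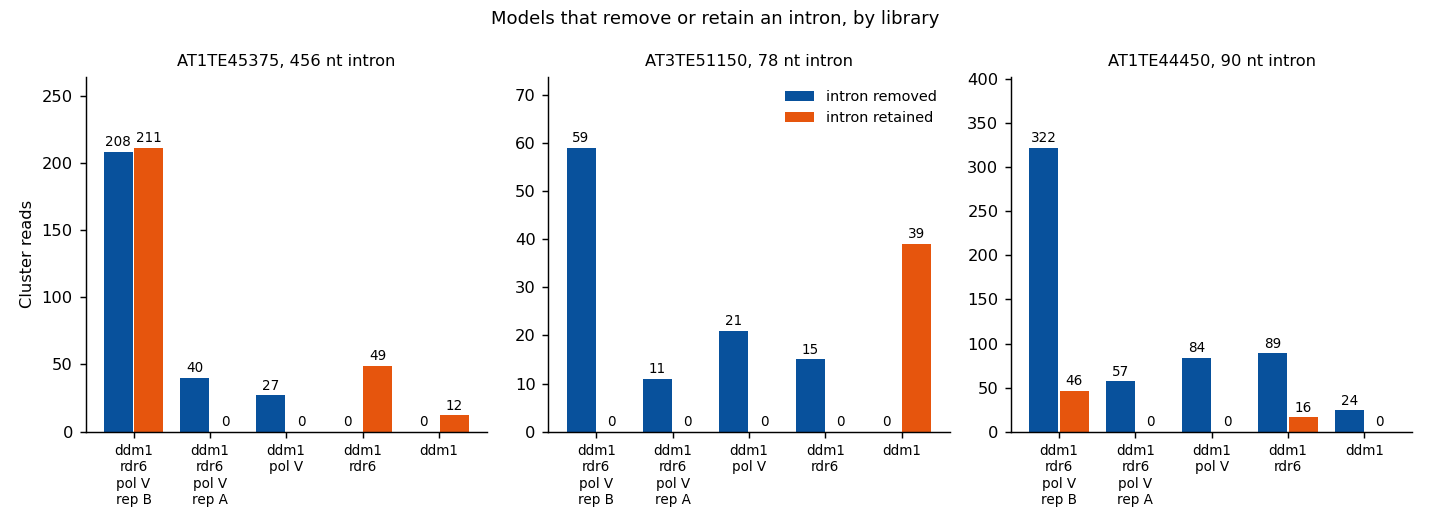
Cluster reads (y axis) of models that removed (blue) or retained (orange) an intron in the 5 mutant libraries (x axis), for AT1TE45375 (left), AT3TE51150 (middle) and AT1TE44450 (right). Replicate B of ddm1 rdr6 pol V holds both forms of the AT1TE45375 intron, with 208 and 211 reads. Among listed models, which hold at least 10 reads, the AT3TE51150 intron is retained in ddm1 only, with 39 reads.

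Other retained introns differed in which form held more reads. The 79 nt intron of AT1TE45375 was removed in 34 and retained in 208 reads of replicate B, and it was retained in all reads that spanned it in the other 4 mutant libraries, 28 in replicate A, 27 in ddm1 pol V, 35 in ddm1 rdr6 and 12 in ddm1. At AT1TE52795 (chr1:16012646-16013506, with no annotated gene on its strand) the 234 nt intron was removed in 75 and retained in 48 reads of replicate B, and removed in all 12 of replicate A, while the 105 nt intron was removed in 11 and retained in 112 reads of replicate B. At AT2TE07745 the 129 nt intron was retained in 14 of 192 reads in replicate B (7.29%) and in 0 of 20 in replicate A, 27 in ddm1 pol V and 28 in ddm1 rdr6. At AT2TE22040 (chr2:5441505-5444208, pseudogene AT2G13160) the 437 nt intron was retained in 10 of 57 reads in replicate B (17.5%) and in 0 of 22 in ddm1 pol V and 24 in ddm1 rdr6. Both forms were thus seen mostly in the deepest library. In the other libraries a form of fewer than 10 reads would not be listed.

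Member introns entered by a model that ended inside them numbered 17 (5.31%, 3.12% to 8.37%), of which 5 were also among the retained ones, against 0 of 189 outside the blocks (up to 1.93%). The 4175 nt intron of AT4TE15820 was removed in 744 reads of replicate B, 55 of replicate A, 257 of ddm1 pol V, 100 of ddm1 rdr6 and 39 of ddm1. Unspliced models that ended within it held 57 reads in replicate B, 13 in replicate A and 23 in ddm1 pol V. These unspliced models thus held fewer reads than the spliced ones in each of these 3 libraries. No listed model retained the whole intron, so they need not be an unspliced form of the same transcript. At AT5TE39315 (chr5:10817121-10818610, pseudogene AT5G28785, named after its values were seen) the order was reversed in part. Its 742 nt intron was removed in 108 reads of replicate B, 21 of replicate A and 11 of ddm1 rdr6, and models that ended inside it held 203 reads in replicate B, 16 in replicate A, 20 in ddm1 rdr6 and 11 in ddm1.

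Very long introns, over 5000 nt, numbered 4 among the members and 0 outside the blocks, and the annotation of coding genes holds 12. The longest joined bases 3507964 to 3688383 of chromosome 4 across 180420 nt, on the plus strand at AT4TE15820, with 29 reads in replicate B and 12 in ddm1 pol V. It spans 45 annotated genes, of which 4 are protein-coding. Its ends in the reference are CT-AG, and an 11-base stretch occurs within 30 bases of each end. The exons it joins are 890 and 773 nt long, and both overlap pseudogenes on the opposite strand.
The shared stretch, in capitals, lies at chr4:3507935-3507945 and chr4:3688355-3688365.
AT4TE15820 plus strand, stretch at both ends: ACTCCGAAGCG

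The 15698 nt intron of AT4TE19910 (GT-AG) had 11 reads in replicate B and 10 in ddm1 pol V, and spans 4 annotated genes, none of them protein-coding. Its first exon is 50 nt long and has 4 other copies in the genome, and 25 bases are the same at both of its ends (chr4:4761511-4761535 and chr4:4777208-4777232).
AT4TE19910, stretch at both ends: ATGCATTTAGTTTAGTTTCATGTCT
The 13288 nt intron of AT4TE09810 (GT-TG) had 22 reads in replicate B. Its last exon is 16 nt long and, as printed above, ends in a run of A. The 5186 nt intron of AT2TE20960 (GT-AG) had 18 reads in replicate B, with a first exon of 24 nt that has 1 other copy. Of these 4 introns, 2 were thus not GT-AG, and 3 had a terminal exon of 50 nt or less. The part of the shared stretches and of the short terminal exons in these junctions was not tested.

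The 4175 nt intron of AT4TE15820 differed from these in its support, with 1195 reads over all 5 mutant libraries and GT-AG ends. Its model with most reads had exons of 151 and 143 nt, of which neither had another copy. A 3725 nt intron with the same donor had 12 reads in replicate B. Other introns over 2000 nt were the 4635 nt one of AT2TE20205 (GC-AG, 10 reads in ddm1 pol V) and the 2419 nt one of AT4TE20075, which was named after its values were seen (GT-AG, 42 reads in replicate B).

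The 6 introns that were not GT-AG include those of AT4TE15820 on the plus strand and of AT4TE09810, and 2 with GC-AG ends, at AT2TE20205 and AT5TE38320 (774 nt, 10 reads in replicate B). The other two carried long repeats. At AT3TE51900 (chr3:12606934-12608607, pseudogene AT3G30843) a 188 nt intron with AT-GA ends had 44 reads in replicate B, and 28 bases are the same at both ends, so that the junction can be placed at any point along them. The last exon of this model is 7 nt long and lies wholly inside the repeated bases. At AT4TE16900 (chr4:3839420-3841614, with no annotated gene on its strand) a 96 nt intron with AA-AG ends had 10 reads in replicate B and 14 in ddm1 rdr6, and 14 bases are the same at both ends. Unspliced models of AT4TE16900 held 555 reads in replicate B, 129 in replicate A, 379 in ddm1 pol V, 399 in ddm1 rdr6 and 186 in ddm1. The spliced reads were thus few beside the unspliced ones of the whole locus, which need not span this intron. Listed models that retained the 96 nt intron held 16 reads in ddm1 pol V. Replicate B and ddm1 rdr6, which removed it, held 0 such reads. Over all 320 introns the stretch shared by both ends had a median of 6 bases, and 5 introns had 12 or more, against 0 of 189 outside the blocks. The repeats of both loci are printed in capitals, at chr3:12606932-12606959 and chr3:12607120-12607147 for AT3TE51900 and at chr4:3839826-3839839 and chr4:3839923-3839936 for AT4TE16900, minus strand.
AT3TE51900, stretch at both ends: CCTATGTCAAATTTCATGAATAAATATT
AT4TE16900, stretch at both ends: AACCACTCGATCAC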

How the data were processed

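The authors deposited transcript models with their exons for 6 libraries and lists pairing models with TE identifiers. The submitters' processing notes name minimap2 and the TAIR10 build, and the source column of the files names pinfish, which clusters long reads. For versions and settings the sources used here state nothing. The deposited count at the end of each model name was read as cluster reads, following pinfish naming, which the files do not state. Its minimum was 10, and library totals are unknown. Members, loci and lists were chosen with earlier results of these data known.

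Models whose exons overlapped by 1 bp or more on 1 strand formed a locus, and introns with the same first and last base were counted once. An intron was retained when it lay inside an exon with 10 nt on each side. Exon copies were matches at 98% identity over 95% of an exon (BLAST+ 2.17.0). Splice sites and sequences came from TAIR10.1, and 0 models ran past a chromosome end. Intervals are exact 95% (scipy 1.17.1). With 1 library per genotype in a sequencing round, no test was made and no background share of calls applies. Named loci were those in all 5 mutant libraries, the 5 with most intron chains, introns or reads, those with introns over 5000 nt or not GT-AG, and the 5 with retained introns in most libraries. The scripts recovered known structures in simulated models. Alternatives were a minimum of 20 reads, other limits for intron matching, retention, length, position and loci, and leaving out either replicate of ddm1 rdr6 pol V.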

Additional observations from a re-analysis of the deposited data

How the results depend on the processing

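Of 50 values under alternative settings, 37 stayed within 1.5 times a count or within the interval of a share or median, and 13 moved. With at least 20 reads per model, members numbered 73 in ddm1 rdr6 pol V replicate B, 12 in replicate A, 23 in ddm1 pol V, 14 in ddm1 rdr6 and 5 in ddm1, with 126 distinct introns, a median intron of 114 nt, 2 introns over 5000 nt, 3 loci in all mutant libraries, and 95.9% of round 1 introns in replicate B. This setting keeps fewer models by construction. A limit of 2000 nt gave 8 very long introns. Leaving out replicate A or replicate B of ddm1 rdr6 pol V gave 124 to 319 distinct introns and 2 to 4 introns over 5000 nt, the lower values without replicate B, while the median intron ranged over 101 to 102 nt, GT-AG ends over 97.6% to 98.1%, alternative introns over 12.9% to 13.8%, retained introns over 4.03% to 6.27%, loci with 2 or more chains over 16.3% to 23.3% and loci in all mutant libraries over 10 to 11. Without replicate B, the share of round 1 introns in it has no value. No paired analysis was possible because no 2 genotypes share 2 replicate numbers and no test was made. The unknown depth limits all counts of models.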

Other observations

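Many member introns resembled introns of other members. When the 20 bases on each side of the 2 ends of an intron were compared, with up to 16 mismatches in 80 bases, 132 of 320 introns (41.2%) from 57 loci fell into 38 groups. An intron joined a group by matching any 1 intron of another locus in it. Other introns of that group can therefore differ from it at more than 16 bases. The largest group held 16 introns of 16 loci on 4 chromosomes, all 78 to 82 nt long, with 403 reads in 3 libraries. It includes AT1TE42225, AT1TE42890 and AT1TE45020, and 10 of these 38 groups had introns of 1 length only. A group of 4 introns of 177 nt came from AT2TE06955, AT3TE48070, AT3TE53580 and AT5TE49755, on 3 chromosomes, with 284 reads in 5 libraries. The 96 nt first intron of AT3TE53850 had counterparts of the same length in AT1TE52795 and AT4TE21295, as did its 234 nt intron. In another group, the intron of AT1TE42225 measured 592 nt and that of AT1TE42890 888 nt. No group had a longest intron more than 2 times its shortest.

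Most loci had no near-identical copy of a whole exon. The exons of the model with most reads of each locus were searched, at 98% identity over 95% of an exon. By this measure, 71 of the 116 loci had no exon with another copy in the genome, and at 8 loci every exon had one. Partial copies do not count here, and very short exons can be missed, so these 71 loci need not be unique in sequence. AT4TE10210 was among the 8, and its exons had up to 5 other copies.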
